A study of Mus musculus with 13 samples.

Results

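The genes described here are 42 enzymes, transporters and chain modifiers that build and sulfate glycosaminoglycans, read from bulk messenger RNA of mouse mandibular condylar cartilage, which caps the condyle of the lower jaw. They were chosen by symbol from the 18748 genes of the deposited table. Of these, 41 were found under the symbol listed, and Impad1 was found by its gene ID under the newer symbol Bpnt2. After the filter on low counts 41 of the 42 were tested, and Hs6st2, with at most 16 reads in any library, was not. They fall into 6 roles: 6 genes of the linker that joins chains to core proteins, 6 of chondroitin chain growth, 10 of chondroitin sulfation and epimerisation, 4 of heparan chain growth, 9 of heparan modification and 7 of sulfate and sugar supply.

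The aged group held 6 libraries from mice of 18 months and the young group 7 libraries from mice of 2 months. The labels name no strain, sex, treatment or genetic change for either group. They number the libraries without saying whether each came from 1 mouse, so p-values measure the spread between these libraries. Expected counts summed to between 16356839 and 17876681 per aged library and between 17531694 and 18203443 per young library.

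As background, chondroitin, dermatan and heparan sulfate, the glycosaminoglycans of this set, are long sugar chains built in the Golgi on a serine of a core protein such as aggrecan. A xylose is added first and extended to a short linker. A first N-acetylgalactosamine then makes the chain chondroitin or dermatan sulfate, and a first N-acetylglucosamine makes it heparan sulfate. Sulfotransferases decorate the chains with sulfate taken from the activated donor PAPS, which is made in the cytosol and carried into the Golgi. In cartilage the sulfated chondroitin chains of aggrecan hold water and so bear load, and inherited defects of sulfate uptake or activation cause skeletal dysplasias.

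Promoters of the 3 members with the largest falls whose libraries did not overlap between ages (Chsy1, Slc35d1 and Papss1), and of Chst3, the member that rose with no overlap, are shown so that the letters upstream of the genes that the results turn on can be read. They are the 250 bases before the start in RefSeq's GRCm38.p6 table, a build other than the GRCm39 named in the submitters' processing notes, at chr7:66109242-66109491 (+ strand), chr4:103215177-103215426 (- strand), chr3:131564518-131564767 (+ strand), the first of 2 listed starts, and chr10:60219261-60219510 (- strand). Capitals mark a GC box (GGGCGG) or an E-box (CACGTG) on either strand.
Chsy1: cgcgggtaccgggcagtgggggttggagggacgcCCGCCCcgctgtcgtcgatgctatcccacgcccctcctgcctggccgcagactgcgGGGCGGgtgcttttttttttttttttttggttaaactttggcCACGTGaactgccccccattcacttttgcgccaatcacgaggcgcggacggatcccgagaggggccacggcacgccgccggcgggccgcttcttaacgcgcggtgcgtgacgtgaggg
Slc35d1: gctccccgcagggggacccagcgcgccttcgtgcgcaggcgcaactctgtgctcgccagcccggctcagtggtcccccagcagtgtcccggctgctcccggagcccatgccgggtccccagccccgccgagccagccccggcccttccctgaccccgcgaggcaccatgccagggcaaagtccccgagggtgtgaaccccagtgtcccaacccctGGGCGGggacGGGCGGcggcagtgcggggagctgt
Papss1: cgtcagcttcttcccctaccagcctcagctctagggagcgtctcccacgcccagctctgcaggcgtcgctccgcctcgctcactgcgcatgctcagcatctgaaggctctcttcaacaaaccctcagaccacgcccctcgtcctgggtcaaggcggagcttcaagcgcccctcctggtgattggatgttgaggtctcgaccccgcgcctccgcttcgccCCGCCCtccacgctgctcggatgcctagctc
Chst3: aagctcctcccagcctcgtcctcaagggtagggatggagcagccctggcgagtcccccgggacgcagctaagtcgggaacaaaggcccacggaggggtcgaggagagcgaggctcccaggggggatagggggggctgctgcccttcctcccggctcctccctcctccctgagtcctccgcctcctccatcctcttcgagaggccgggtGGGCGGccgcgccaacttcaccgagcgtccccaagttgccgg

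Of the 41 tested members, 32 had a promoter in that table. A GC box was present in 24 of the 32 (75.0%), against 57.6% of the 11161 tested genes with a promoter and 32.9% of all 27025 promoters. An E-box was present in 3 members (9.38%), Chsy1, Chst14 and Ext2, against 8.16% of tested genes. The SOX core AACAAT was in none of the 32 and in 5.12% of tested genes, and TGACGTGG, a form of the unfolded protein response element, was in none and in 0.663%. Both strands were searched, and the E-box and the unfolded protein response motif share the letters ACGTG. The median GC content was 65.4% over member promoters and 59.6% over those of tested genes, and its part in these shares was not tested. These matches are letters in a window and were not tested. All 4 promoters shown, of the 3 members that fell and of Chst3, hold a GC box.

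Some facts of the libraries touch every result below. Levels are CPM, a count relative to the library size, with library sizes scaled by TMM, which aligns libraries on genes taken to be mostly stable. Summed over the marker list, skeletal muscle genes lay between 6095 and 21822 CPM in aged libraries and between 754 and 7370 CPM in young ones, and all 14 erythroid and 9 of 12 neutrophil markers rose, at medians of 3.66 and 1.54 on the log2 scale. Chondrocyte markers summed to between 12652 and 27265 CPM in aged and between 29436 and 45351 CPM in young libraries, where 10 of 15 fell and Sox5, Sox6 and Comp rose. The chondrocyte marker Matn1 had no read in 4 of the 6 aged libraries and at most 2 in the others, against 7 to 15 reads in young ones. Of 10 fibroblast markers 3 rose (Pi16, Thbs4 and Prg4) and 2 fell (Col1a2 and Pdgfra), at a median log2 fold change of 0.22, and their sum (31773 to 38744 CPM in aged and 93158 to 115690 CPM in young libraries) is mostly Col1a2. The part of these cell types in the results was not tested except where a marker score enters the fit. Osteoblast markers fell in 9 of 11 cases and osteoclast markers in 7 of 9. Of all tested genes 21.6% fell and 24.7% rose. In a bulk sample, fewer cells of a type and less RNA per cell cannot be told apart. Aged replicate 4 had the highest level of its age for 17 of the 41 members (41.5%, against 15.9% of all tested genes) and aged replicate 2 the lowest for 19 (46.3%, against 15.5%). Young replicate 7 had the highest of its age for 23 (56.1%, against 14.7%).

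Glycosaminoglycan genes were lower more often than higher in aged cartilage with TMM scaling, and higher more often with library sizes alone. Of the 41 tested members, 20 fell (48.8%) and 8 rose (19.5%) by edgeR's quasi-likelihood test at an adjusted p under 0.05, where 21.6% of all 14067 tested genes fell and 24.7% rose. With library sizes alone, which moved the median of all genes to 0.244, 15 members were higher and 10 lower, where 7034 of all genes were higher and 1253 lower. The 18 calls kept there comprised all 8 rises and 10 of the 20 falls, and the falls of Xylt2, B4galt7, Chpf, Chpf2, Chst11, Chst14, Dsel, Ndst1, Slc26a2 and Bpnt2 were lost. The 7 rises called in addition there were those of Csgalnact1, Chsy3, Ust, Dse, Ndst2, Glce and Sulf1. Calls in either direction were made for 68.3% of members and 46.2% of all genes. The median log2 fold change (aged over young) was −0.16 over members and 0.014 over all tested genes. Every aged library lay below every young one for 9 members, where 10.9% of all genes did so, and above for 1 (8.28% of all genes). Without aged replicate 4 only 5 members rose, and leaving out any other library gave between 6 and 9 rises. Between 18 and 21 members fell when any 1 of the 13 libraries was left out, 19 without aged replicate 2 or 4 and 18 without young replicate 7.

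**Figure D1:**
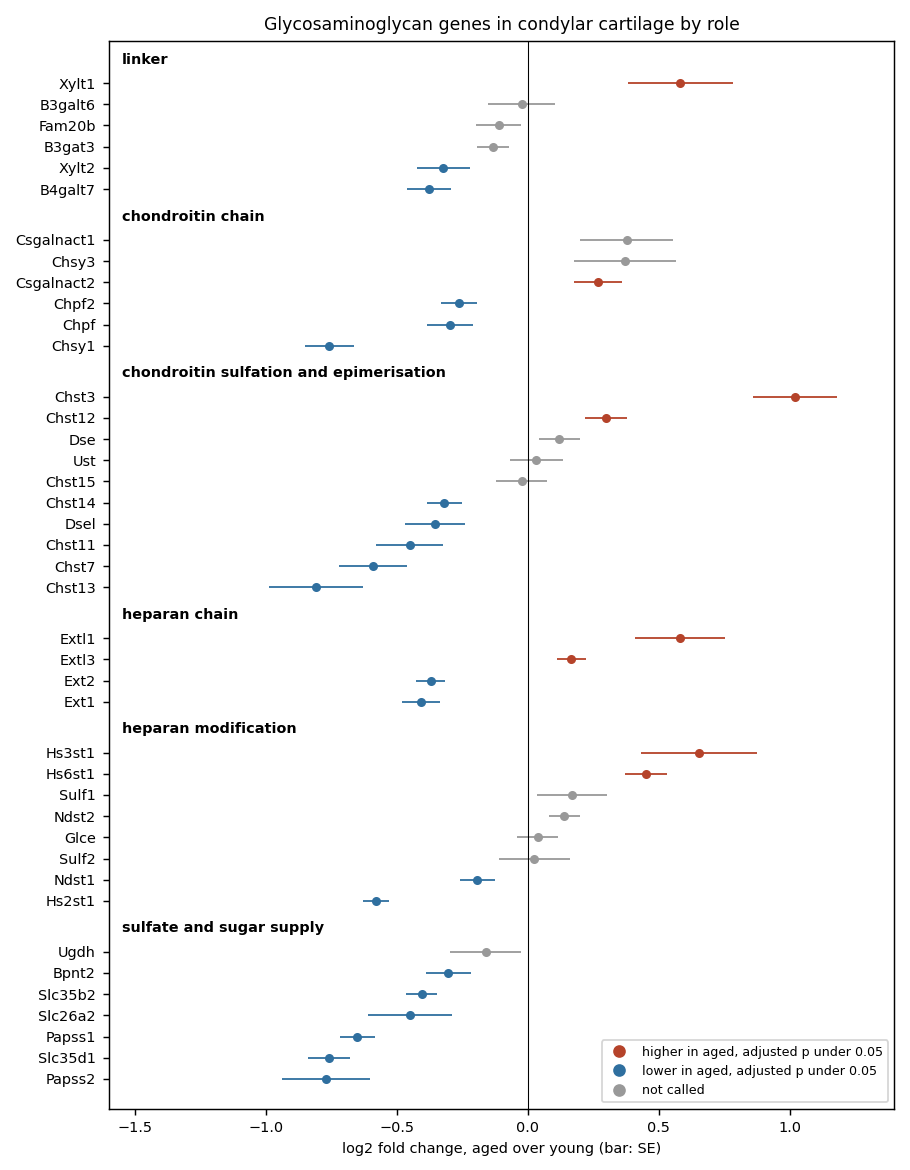
Log2 fold change (aged over young, x axis) of the 41 tested members, grouped by role; points are edgeR estimates, bars are SE, and colour gives the call at an adjusted p of 0.05. All 7 sulfate and sugar supply genes lie below 0 (Ugdh at 0.07 with library sizes alone), while every other role has members on both sides of 0.

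The 7 members that supply sulfate and sugars were mostly lower. Of the 7, 6 fell (85.7%) and none rose, where 21.6% of all tested genes fell and 24.7% rose. The median log2 fold change was −0.45, and the remaining gene, Ugdh, stood at −0.16 (edgeR adjusted p = 0.357). With library sizes alone 4 fell, where 1253 of all 14067 genes did. With a score of muscle markers in the fit 4 were lower, and with one of erythroid and neutrophil markers 3. Of 16 other supply genes outside the set, 4 rose and 4 fell. Papss1 (gene ID 23971), an enzyme that makes the sulfate donor PAPS, was at 49.8, 52.9 and 61.5 CPM in aged libraries (lowest, median, highest; TMM-normalised), against 77.6, 84.0 and 96.1 CPM in young ones. No aged library reached the lowest young one, and the log2 fold change came to −0.65 ± 0.07 (SE, edgeR adjusted p = 4.95e-06). Its sister Papss2 (gene ID 23972), the form whose loss causes brachyolmia in humans and short limbs in mice, was at 57.8, 71.1 and 107 CPM in aged and 92.9, 119 and 170.3 CPM in young libraries. Here 5 of the 6 aged libraries lay below all young ones, and the log2 fold change came to −0.77 ± 0.17 (SE, edgeR adjusted p = 0.00224).

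Of the transporters among the members, Slc35b2, Slc35d1 and Slc26a2 fell. Transporters outside the set went both ways. Slc26a1 and Slc35d2 rose (log2 fold changes 1.70 and 0.37), Slc35a2 and Slc35a3 fell (−0.51 and −0.34), and Slc35b3 was not called (−0.14). Slc35b2 (gene ID 73836), which carries PAPS into the Golgi and had the highest level per length of the supply genes, was at 53.5, 61.2 and 65.3 CPM in aged and 72.1, 80.5 and 87.9 CPM in young libraries. The ages did not overlap, with a log2 difference of −0.41 ± 0.06 (SE, edgeR adjusted p = 9.45e-05). Slc35d1 (gene ID 242585), which brings UDP-sugars for chondroitin into the secretory pathway and is needed for cartilage growth in mice, was at 14.7, 17.1 and 18.1 CPM in aged and 24.6, 29.5 and 33.5 CPM in young libraries. Again the ages did not overlap, at −0.76 ± 0.08 (SE, edgeR adjusted p = 7.15e-06). Slc26a2, the sulfate transporter of the cell surface that is mutated in diastrophic dysplasia, changed by −0.45 ± 0.16 on the log2 scale (SE, edgeR adjusted p = 0.0343), and this call was lost without aged replicate 1, 2 or 6 or young replicate 2 or 7 (adjusted p between 0.0548 and 0.0718). Bpnt2, which clears the by-product left when PAPS gives up its sulfate, fell by 0.30 on the log2 scale (edgeR adjusted p = 0.00991). Ugdh, which makes UDP-glucuronic acid, ran from 58.6 to 111 CPM in aged and from 76.9 to 100.1 CPM in young libraries, so the aged range spans the young one.

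**Figure D2:**
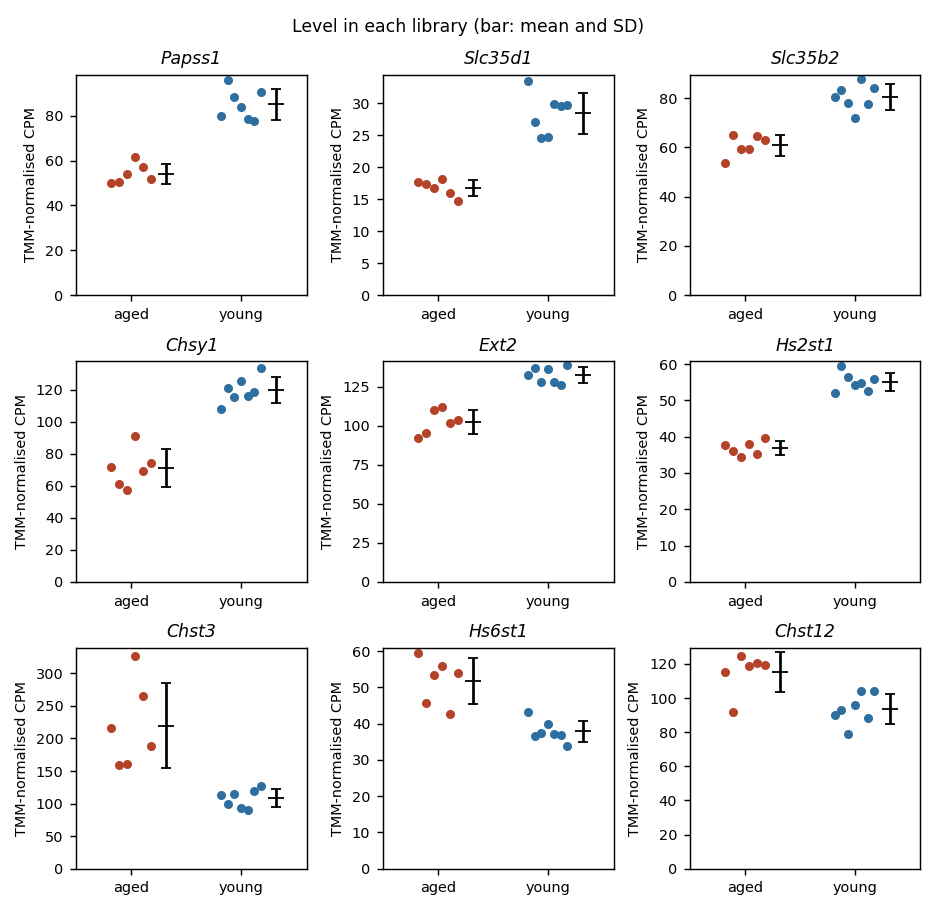
TMM-normalised CPM (y axis, from 0) of 9 members in each aged (left) and young (right) library; every point is a library, and the bar beside it is the mean and SD. Papss1, Slc35d1, Slc35b2, Chsy1, Ext2 and Hs2st1 show no overlap with aged lower, Chst3 no overlap with aged higher, and Hs6st1 and Chst12 overlap in 1 aged library each.

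Among the 6 linker genes Xylt1 rose, B4galt7 and Xylt2 fell, and 5 of 6 had a log2 fold change below 0. Of all 14067 tested genes 6799 did so. With library sizes alone only B4galt7 (−0.15) and Xylt2 (−0.09) lay below 0, and neither was called. Xylt1 (gene ID 233781) and Xylt2 (gene ID 217119) encode the xylosyltransferases that start chondroitin, dermatan and heparan sulfate chains. Xylt1 was at 43.7, 63.7 and 84.4 CPM in aged and 30.6, 40.9 and 64.4 CPM in young libraries, with 3 aged libraries above all young ones and a log2 difference of 0.58 ± 0.20 (SE, edgeR adjusted p = 0.0289). This rise was not called without young replicate 3, 4 or 6 or aged replicate 3, 4 or 5 (adjusted p between 0.0522 and 0.0713). Xylt2 went the other way, at 23.1, 29.0 and 39.9 CPM in aged and 33.4, 36.7 and 41.1 CPM in young libraries (log2 fold change −0.32 ± 0.10, SE, edgeR adjusted p = 0.0176). B4galt7 (gene ID 218271), which adds the first galactose of the linker and whose loss in humans causes a spondylodysplastic Ehlers-Danlos syndrome, was at 18.2, 21.8 and 26.6 CPM in aged and 26.3, 28.9 and 31.5 CPM in young libraries. All but 1 aged library lay below the young range (log2 fold change −0.38 ± 0.08, SE, edgeR adjusted p = 0.0022).

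The later linker enzymes were not called. B3gat3 (gene ID 72727), which completes the linker with glucuronic acid and had the highest level per length of the linker genes, was at 44.6, 49.8 and 53.9 CPM in aged and 46.8, 55.3 and 58.3 CPM in young libraries (log2 fold change −0.13 ± 0.06, SE, edgeR adjusted p = 0.0861). B3galt6, the second galactosyltransferase, and Fam20b, the kinase that phosphorylates the xylose, stood at −0.02 and −0.11.

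Chondroitin chain growth was marked by the fall of Chsy1 (gene ID 269941), one of the synthases that lengthen the chain. It was at 57.4, 70.6 and 91.3 CPM in aged and 108, 119 and 134 CPM in young libraries. The ages did not overlap, and the log2 fold change came to −0.76 ± 0.09 (SE, edgeR adjusted p = 2.17e-05). The polymerising factors Chpf (gene ID 74241) and Chpf2, which work with the synthases, fell by 0.30 and 0.26 on the log2 scale (edgeR adjusted p = 0.0143 and 0.00631). Chpf (SE 0.09), the highest of these genes per length, was at 76.3, 98.3 and 111 CPM in aged and 102, 120 and 129 CPM in young libraries, and 5 of the 6 aged libraries lay below the young range. In contrast Csgalnact2 (gene ID 78752), which adds the first N-acetylgalactosamine and so commits a chain to chondroitin, was at 79.4, 87.9 and 118 CPM in aged and 71.3, 77.5 and 84.6 CPM in young libraries (log2 fold change 0.27 ± 0.09, SE, edgeR adjusted p = 0.0281). That call was lost without young replicate 3 or 4 or aged replicate 4 or 5. Csgalnact1 and Chsy3, the sisters of the pair, stood at 0.38 and 0.37 and were not called (edgeR adjusted p = 0.0963 and 0.134).

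Among the 10 genes of chondroitin sulfation and epimerisation 5 fell and 2 rose, where 21.6% of all tested genes fell and 24.7% rose. Chst3 (gene ID 53374), the sulfotransferase that places sulfate on carbon 6 of N-acetylgalactosamine and is mutated in human spondyloepiphyseal dysplasia with joint dislocations, rose most of all members. It was at 159, 203 and 327 CPM in aged and 90.0, 113 and 127 CPM in young libraries. Every aged library lay above every young one, with a log2 difference of 1.02 ± 0.16 (SE, edgeR adjusted p = 0.000182), a 2.03-fold higher level. Chst7 (gene ID 60322), the other enzyme for carbon 6, was low and fell without overlap, at 2.36, 3.30 and 3.70 CPM in aged and 3.91, 4.80 and 5.33 CPM in young libraries (log2 fold change −0.59 ± 0.13, SE, edgeR adjusted p = 0.00227).

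The enzymes that place sulfate on carbon 4 were split. Chst12 (gene ID 59031), which had the highest level per length of all members, was at 91.9, 119 and 125 CPM in aged and 79.0, 93.2 and 104 CPM in young libraries. All aged libraries but replicate 2 lay above the young range, and the log2 fold change came to 0.30 ± 0.08 (SE, edgeR adjusted p = 0.00692). Chst11, whose loss in mice gives severe chondrodysplasia, fell by 0.45 on the log2 scale (SE 0.13, edgeR adjusted p = 0.0108). Chst13 (gene ID 71797), the third of this kind, was at 2.74, 4.40 and 5.76 CPM in aged and 5.25, 7.90 and 8.66 CPM in young libraries (log2 fold change −0.81 ± 0.18, SE, edgeR adjusted p = 0.0022). Chst14 and Dsel, which sulfate and epimerise dermatan, fell by 0.32 and 0.35, while Dse, the main epimerase, stood at 0.12 (edgeR adjusted p = 0.231). Chst15, which adds a second sulfate, and Ust, which sulfates the uronic acid, stood at −0.02 and 0.03 and were not called.

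A share of the 2 classes by transcript was formed after these values were seen and is given without a test. Chst3 and Chst7 together made 20.2% to 30.7% of the summed TPM of Chst3, Chst7, Chst11, Chst12 and Chst13 in aged libraries (mean 25.2 ± 3.83%, SD, n = 6), against 13.1% to 17.45% in young ones (15.5 ± 1.82%, SD, n = 7). The summed TPM of Chst3 and Chst7 was 80.0 ± 22.0 in aged and 40.3 ± 5.18 in young libraries, and that of the other 3 genes 234.5 ± 31.9 in aged and 219.9 ± 14.7 in young libraries. The shares did not overlap between ages, and transcript shares are not a measure of the sulfate on the chains.

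Of the heparan chain genes, both polymerase subunits fell and both exostosin-like genes rose. Ext1 (gene ID 14042) and Ext2 (gene ID 14043) form the polymerase that lengthens heparan sulfate, and loss of either causes hereditary multiple exostoses, cartilage-capped bone growths. Ext1 was at 89.1, 97.7 and 121 CPM in aged and 126, 134 and 152 CPM in young libraries (log2 fold change −0.41 ± 0.07, SE, edgeR adjusted p = 0.000527). Ext2 was at 91.9, 103 and 112 CPM in aged and 126, 132 and 139 CPM in young libraries (log2 fold change −0.37 ± 0.05, SE, edgeR adjusted p = 9.5e-05). Neither overlapped between ages. Extl3, which adds the first N-acetylglucosamine, rose by 0.17 (edgeR adjusted p = 0.0238), a call lost without aged replicate 3 or 5. Extl1 (gene ID 56219), an exostosin-like transferase, was at 16.5, 25.6 and 36.6 CPM in aged and 14.9, 15.98 and 25.4 CPM in young libraries (log2 fold change 0.58 ± 0.17, SE, edgeR adjusted p = 0.0132).

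Heparan modification showed its largest called changes in the sulfotransferases. Hs2st1 (gene ID 23908), which sulfates the uronic acid, was at 34.5, 36.9 and 39.5 CPM in aged and 52.0, 54.8 and 59.5 CPM in young libraries. The ranges are narrow and far apart, with a log2 difference of −0.58 ± 0.05 (SE, edgeR adjusted p = 9.68e-07), the smallest adjusted p of all members. Hs6st1 (gene ID 50785), which sulfates carbon 6 of glucosamine, was at 42.7, 53.7 and 59.5 CPM in aged and 33.7, 37.1 and 43.3 CPM in young libraries, with 5 aged libraries above all young ones (log2 fold change 0.45 ± 0.08, SE, edgeR adjusted p = 0.000459). Hs3st1 (gene ID 15476), which makes the rare sulfate that binds antithrombin, was low, at 2.32, 3.68 and 6.60 CPM in aged and 1.71, 2.40 and 3.09 CPM in young libraries. Its log2 difference of 0.65 ± 0.22 (SE, edgeR adjusted p = 0.0256) was not called without aged replicate 4 (0.44) or young replicate 7 (0.58).

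Of the remaining heparan modifiers only Ndst1 was called with TMM scaling. Sulf1 (gene ID 240725), a sulfatase that trims sulfate outside the cell and had the highest level per length of these genes, was at 141, 207 and 248 CPM in aged and 162, 177 and 209 CPM in young libraries (log2 fold change 0.17 ± 0.13, SE, edgeR adjusted p = 0.326). Its sister Sulf2, Glce, the epimerase, and Ndst2, an N-sulfating enzyme, stood at 0.02, 0.04 and 0.14 and were not called. With library sizes alone Sulf1 (0.39), Ndst2 (0.37) and Glce (0.27) were called higher. Ndst1, the main N-sulfating enzyme, fell by 0.19 (edgeR adjusted p = 0.0284) but stood at 0.04 with library sizes alone, and the call was lost without young replicate 3 or 7 or aged replicate 2 or 4. Hs6st2 had between 2 and 16 reads in aged and between 0 and 8 reads in young libraries.

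A plain ratio of 2 genes within a library does not depend on how libraries are scaled. The 0.5 CPM added to each gene here leaves some dependence, most for low genes such as Chst7. By this log2 CPM ratio 12 pairs of sister genes were compared. Of these, 6 differed between ages by a two-sided exact permutation test that went through all 1716 ways of assigning the 13 libraries to the ages, with p adjusted over the 12 pairs. Chst3 over Chst7 averaged 5.88 ± 0.505 (SD, n = 6) in aged and 4.37 ± 0.111 (SD, n = 7) in young libraries, a difference of 1.51 (exact permutation p = 0.000583, the smallest this test allows, adjusted p = 0.00233). Chsy1 over Chsy3 averaged 1.41 ± 0.331 in aged and 2.49 ± 0.178 in young libraries, a difference of −1.08 with the same p. Ndst1 over Ndst2 was lower by 0.33 in aged libraries, also without overlap and with the same p. These 3 pairs were the ones whose ratios did not overlap between ages. Ratios of other gene pairs were not compared, so whether these counts are particular to sister genes was not tested. Of all tested genes taken singly, 46.2% were called and 19.2% did not overlap between ages.

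Another 3 pairs differed with some overlap. Xylt1 over Xylt2 averaged 1.09 ± 0.464 in aged and 0.161 ± 0.446 in young libraries (difference 0.93, exact permutation p = 0.00524, adjusted p = 0.0105). Chst11 over Chst12 averaged 0.368 ± 0.243 in aged and 1.13 ± 0.254 in young libraries (difference −0.76, exact permutation p = 0.00175, adjusted p = 0.0042). Dse over Dsel averaged 1.22 ± 0.233 in aged and 0.735 ± 0.138 in young libraries (difference 0.49, exact permutation p = 0.00117, adjusted p = 0.0035). For the other 6 pairs the difference lay between −0.11 and 0.31 with adjusted p of 0.201 or more, which does not show that the sisters changed alike. Papss2 over Papss1 was among them at −0.11 and Ext1 over Ext2 at −0.04.

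**Figure D3:**
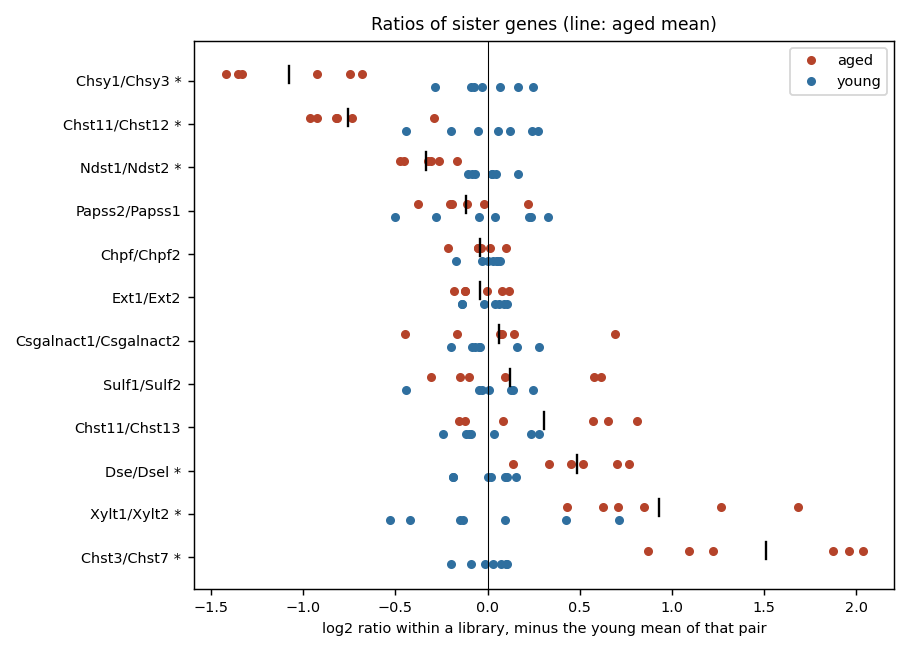
Log2 ratio of each of 12 pairs of sister genes in each library, minus the young mean of that pair (x axis); aged points are above young points within a row, the line is the aged mean, and a star marks an adjusted p under 0.05. The aged points of Chsy1/Chsy3 and Ndst1/Ndst2 lie left of all young ones and those of Chst3/Chst7 right of them.

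Levels per gene length spanned a wide range. By mean TPM in aged libraries Chst12 came first (167 ± 21.8, SD, n = 6), ahead of Sulf1 (95.3 ± 20.8), Ext2 (85.7 ± 8.79), Slc35b2 (83.2 ± 3.85) and B3gat3 (83.1 ± 4.93). The means of Ext2, Slc35b2 and B3gat3 lie within 1 SD of each other, and all 3 lie less than the SD of Sulf1 below its mean. In young libraries Chst12 (130.1 ± 11.3, SD, n = 7) was followed by Slc35b2 (105.7 ± 5.89), Ext2 (105.3 ± 4.89), B3gat3 (87.9 ± 5.76) and Ext1 (87.5 ± 5.93). Chst3 stood at 76.5 ± 22.1 TPM in aged and 35.1 ± 4.68 TPM in young libraries. At the low end were Hs3st1 (6.09 ± 2.28 TPM in aged and 3.75 ± 0.767 TPM in young libraries), Chst7 (3.57 ± 0.576 TPM in aged and 5.16 ± 0.585 TPM in young libraries) and Hs6st2 (0.202 ± 0.161 TPM in aged and 0.166 ± 0.103 TPM in young libraries). The SD of log2 CPM was larger in aged libraries for 34 of the 41 members (82.9%), close to the 79.3% of all tested genes.

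**Figure D4:**
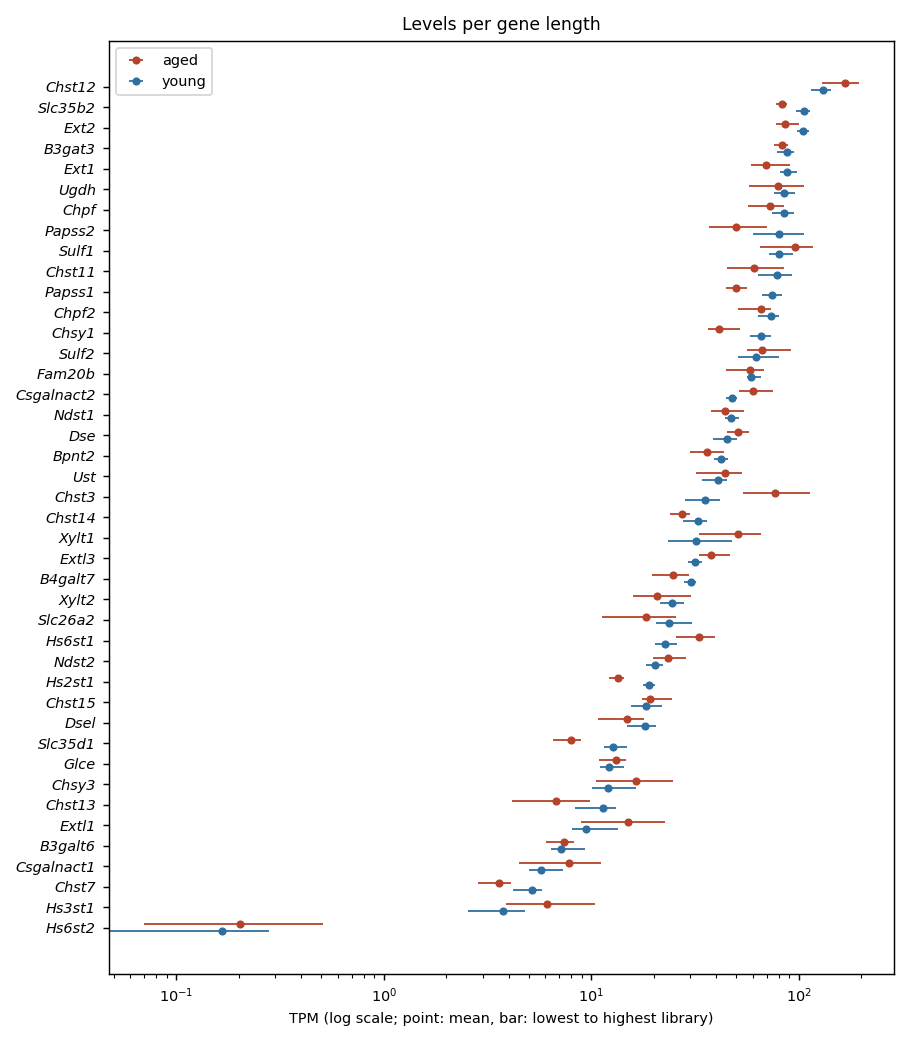
TPM (x axis, log scale) of all 42 members in aged and young libraries, ordered by the young mean; points are means and bars run from the lowest to the highest library. Chst12 is highest in both ages and Hs6st2 lowest, whose young bar runs off the axis because 1 library was at 0.

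Other genes of the pathway, taken from lists that hold no member, moved as follows. Of 15 tested chain and sulfation enzymes 5 fell (33.3%) and 3 rose (20%), where 21.6% of all tested genes fell and 24.7% rose. Chst1 (gene ID 76969), which sulfates the galactose of keratan sulfate, was at 263, 333 and 437 CPM in aged and 22.2, 32.3 and 49.5 CPM in young libraries, a 9.29-fold higher level (log2 fold change 3.22 ± 0.20, SE, edgeR adjusted p = 8.49e-08). Every aged library was far above the young range. Chst10 rose by 0.79, while Hs3st6 and Chst8, which were low, fell by 1.26 and 1.19.

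Of 16 other genes of nucleotide sugar and sulfate supply 4 rose and 4 fell (25.0% each), close to the shares of all genes. The sulfate transporter Slc26a1 was at 1.14, 1.88 and 2.71 CPM in aged and 0.428, 0.551 and 0.822 CPM in young libraries (log2 fold change 1.70 ± 0.24, SE, edgeR adjusted p = 7.58e-05), and Ugp2, which makes UDP-glucose, rose by 0.73. Pgm3, of UDP-N-acetylglucosamine synthesis, fell by 0.58. Genes of a list of lysosomal breakdown fell in 9 of 20 cases (45%) and rose in 2 (10%), against 21.6% and 24.7% of all tested genes. Glb1, a galactosidase of chain ends, fell by 0.76 without overlap between ages, and heparanase (Hpse) rose by 1.77. Manba rose by 0.17. Genes of a list of core proteins and related proteins fell in 13 of 23 cases (56.5%) and rose in 4 (17.4%), against the same shares of all genes. Bcan and Vcan, chondroitin sulfate proteoglycans, fell by 2.66 and 1.43, and Srgn, a proteoglycan of blood cell granules, and Prelp rose by 1.09 and 0.95. Slc35d2 had an edgeR adjusted p of 0.0472 and each other rise or fall named from these lists one of 0.0124 or less. With the score of erythroid and neutrophil markers in the fit Srgn stood at 0.18 and Hpse at 0.82, neither called. Chst10 (0.59) and Chst8 (−1.01) were not called with that score either. Calls were lost with that score and with the muscle score for Hs3st6 (−2.07 and −0.88), Manba (0.20 and 0.15) and Ugp2 (0.88 and 0.19). Chst1, Slc26a1, Pgm3, Glb1, Bcan, Vcan and Prelp kept their calls with each score. Acan, the main carrier in cartilage, stood at −0.06 (edgeR adjusted p = 0.821).

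The muscle and blood markers that moved with age were also entered into the fit, as a score for each library. With the muscle score 9 of the 28 called members kept their call and direction. In that fit 3 members were higher and 7 lower, where 1953 of all 14067 genes were higher and 1713 lower. With a blood cell score made of erythroid and neutrophil markers 8 of the 28 kept theirs, with 2 higher and 6 lower. Of all genes 1534 were higher and 1293 lower there. With each score the share of members called was close to that of all genes, against 68.3% and 46.2% without a score. The 5 members that kept their call with each score were Papss1, Slc35b2, Slc35d1, Chsy1 and Hs2st1, all lower in aged cartilage. For Papss1 the muscle score gave −0.74 and the blood cell score −0.49, for Slc35d1 they gave −0.64 and −0.86, and for Hs2st1 −0.56 and −0.63. Chst3 stood at 1.22 with the muscle score and was not called with the other (0.84, edgeR adjusted p = 0.111). With both scores together edgeR called no member and 56 of all 14067 genes, Chst1 among them at 3.74 (edgeR adjusted p = 0.0204). The log2 fold changes with both scores were −0.95 for Chsy1, −0.63 for Hs2st1, −0.69 for Slc35d1, −0.58 for Papss1 and 1.14 for Chst3, against −0.76, −0.58, −0.76, −0.65 and 1.02 without a score. The scores follow age, so what they share with age cannot be told apart from it.

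**Figure D5:**
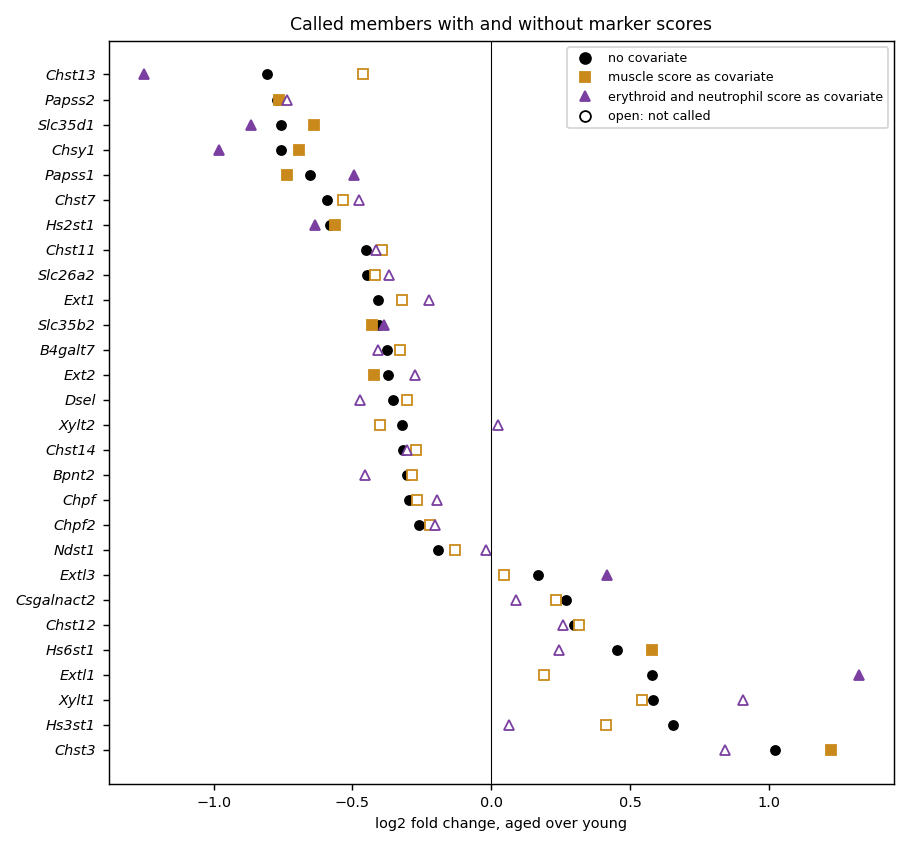
Log2 fold change (aged over young, x axis) of the 28 called members without covariate (circles), given the muscle score (squares) or given the blood cell score of erythroid and neutrophil markers (triangles); open symbols were not called. Papss1, Slc35b2, Slc35d1, Chsy1 and Hs2st1 keep filled symbols in all 3 fits, and the triangle of Xylt2 lies right of 0.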

How the data were processed

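Messenger RNA of mandibular condylar cartilage was sequenced from 6 aged and 7 young libraries, on oligo(dT)-captured, strand-specific reads per the labels' protocols. Per the submitters' processing notes, the tools were RSEM 1.3.1, DESeq2 1.4.5, HISAT2 2.1.0 and Bowtie2 2.3.4.3 on build GRCm39, whose roles and annotation are not stated there. The authors deposited expected counts (5.3% of values not whole), FPKM and TPM per gene and library, the last 2 normalised by gene length and depth, per the file headers. The deposited means of each age were not used.

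After rounding, expected counts went into edgeR 4.0.16 under R 4.3.3 (filterByExpr with minimum count 10 and minimum total 15, TMM, robust glmQLFit, glmQLFTest, Benjamini-Hochberg adjustment over 14067 genes, threshold 0.05). The SE is the size of the log2 fold change over the square root of F. Marker scores are mean log2 CPM (prior count 2) over the marker lists. Alternatives used limma 3.58.1, limma-voom, DESeq2 1.42.0, other filters and scalings, marker scores, a replicate block and each library left out. The test was tested on simulated counts for 14067 genes of this comparison. It recovered 78% of genes changed 1.5-fold and 94% of those changed 2-fold, and 4.64% of its calls were false. Only a small share of genes was changed there, none of low count and equally often up and down. The simulation therefore does not check the scaling between ages where many genes change. Libraries within an age were compared for duplicates by chi-square (smallest value per degree of freedom 10.25) and none was found. Replicate numbers were not used as pairs, since the correlation of deviations was 0.111 to 0.258 for 5 of the 6 numbers but −0.12 for number 4, where every pair over 0.1 was required. Plots used Python 3.11.15 and matplotlib 3.10.9.

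In each role the 3 called members with the largest change, the largest called change in the other direction and the member with the highest TPM were described with values, and from each pathway list the 2 largest called rises and falls, of which some are not reported here. The members and lists were chosen with earlier results of these data known.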

Additional observations from a re-analysis of the deposited data

Results flagged for a closer look

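Among 106 sets of values (each tested member and each sister pair in each age), 7 held a library that stood apart from the others of its age by Dixon's criterion, where chance gives about 1 in 20. Chst12 was at 91.9 CPM in aged replicate 2, against 115 CPM or more in the other aged libraries. Chst15 was at 49.1 CPM in aged replicate 1, the next being 40.1 CPM. Sulf2 reached 157 CPM in aged replicate 6, the next being 112 CPM, and without that library its log2 fold change was −0.12. The Chst11/Chst12 log2 ratio was 0.835 in aged replicate 4, the next being 0.39. Chsy3 was at 28.7 CPM in young replicate 7, the next being 21.7 CPM. The Chpf/Chpf2 log2 ratio was −0.448 in young replicate 1, the next being −0.309, and the Sulf1/Sulf2 log2 ratio was 0.317 in young replicate 2, the next being 0.712.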

How the results depend on the processing

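Counts of members called were 8 higher and 20 lower with no filter, a stricter filter, RLE or upper-quartile scaling, limma-voom and DESeq2, and all 28 calls were the same genes there. With library sizes alone, or limma on log2(FPKM + 1) or log2(FPKM + 0.1), 15 members were higher and 10 lower, and 18 of the 28 calls were kept. Library sizes alone moved the median of all tested genes to 0.244 and of members to 0.0671, so members lay 0.177 below all genes there and 0.174 below with TMM. All genes called split into 3471 higher and 3033 lower with TMM and 7034 higher and 1253 lower with library sizes alone, 6227 and 1369 on log2(FPKM + 1) and 6230 and 1370 on log2(FPKM + 0.1). On log2(TPM + 1), 8 members were higher and 15 lower, and all genes split into 3884 and 2208. With the muscle score 3 members were higher and 7 lower and 3666 genes were called in all, with the erythroid and neutrophil score 2, 6 and 2827, and with both 0, 0 and 56. Each covariate costs residual degrees of freedom, and the cause of the lost calls was not tested. Leaving out 1 library gave 5 to 9 members higher and 18 to 21 lower.

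The labels do not say whether equal numbers mark a shared source, and 1 of the 6 same-number correlations was not above 0.1, so the numbers were not used as pairs. Of the 6 aged libraries 2 correlated best with the young library of their own number. With a replicate block, without young replicate 7, 7 members were higher and 18 lower and 5771 genes were called, and Ndst1, Hs3st1 and Slc26a2 lost their calls.

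Direction changed for some results, none of them called after the change. With library sizes alone, log2(FPKM + 1) and log2(FPKM + 0.1), B3galt6 stood at 0.209, 0.146 and 0.181, B3gat3 at 0.0994, 0.0587 and 0.0600, Fam20b at 0.117, 0.0989 and 0.102, Chst15 at 0.214, 0.180 and 0.197, Ndst1 at 0.0399, 0.0352 and 0.0365 and Ugdh at 0.0671, 0.0139 and 0.0135. On log2(TPM + 1) B3galt6 stood at 0.0388 and Chst15 at 0.0558, and with the replicate block at 0.0410 and 0.0258. With the muscle score B3galt6 was at 0.0806, Chst15 at 0.122, Ugdh at 0.0442, Ust at −0.136 and Sulf2 at −0.0235. With the erythroid and neutrophil score Xylt2 was at 0.0256, Csgalnact1 at −0.0891 and Chsy3 at −0.0140. With both scores Xylt2 was at 0.0777, B3gat3 at 0.0229, Csgalnact2 at −0.0656, Chst15 at 0.253, Ext1 at 0.0391, Ndst1 at 0.189, Hs3st1 at −0.755 and Ugp2 at −0.123. Leaving out 1 library, B3galt6 ranged from −0.0774 to 0.0545, Chst15 from −0.0933 to 0.0250, Ust from −0.0364 to 0.0937, Sulf2 from −0.115 to 0.0998 and the Csgalnact1/Csgalnact2 difference from −0.0636 to 0.165. No sister pair changed its call with 0.5 added to raw counts, with FPKM + 0.1 or with 1 library left out.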

Other observations

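Relative to the young mean, the members that fell in aged cartilage stood at a median log2 CPM difference of between −0.60 (aged replicate 2) and −0.35 (aged replicate 4) over the 6 aged libraries, and between −0.07 and 0.12 over the young ones. The supply genes alone ranged from −0.68 (aged replicate 2) to −0.24 (aged replicate 4), against −0.19 to 0.11 in young libraries. These genes helped define the calls, so the values are descriptions only.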
